A study of Arabidopsis thaliana with 44 samples.

Results

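The genes described here are 10 of the 34133 loci in the expression table and belong to the aliphatic glucosinolate and myrosinase system of Arabidopsis thaliana. They are the regulators MYB28 (AT5G61420) and MYB29 (AT5G07690), the chain-elongation genes BCAT4 (AT3G19710) and MAM1 (AT5G23010), the core synthesis genes CYP79F1 (AT1G16410), CYP79F2 (AT1G16400) and CYP83A1 (AT4G13770), and the breakdown genes ESM1 (AT3G14210), TGG1 (AT5G26000) and TGG2 (AT5G25980). They were picked by locus identifier because ESM1 and CYP79F1 were already known to respond to flight in these libraries. The flight response of ESM1 and CYP79F1 is therefore given below as a description, with no test.

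Glucosinolates are sulfur-rich defence compounds of the mustard family, and the aliphatic class is built from methionine. BCAT4 removes the amino group of methionine and MAM1 adds a carbon unit to the resulting acid, so that the side chain is lengthened. CYP79F1 and CYP79F2 turn the lengthened amino acid into an aldoxime, and CYP83A1 oxidises the aldoxime. MYB28 and MYB29 are transcription factors that switch these genes on. The finished compounds are kept apart from the myrosinases TGG1 and TGG2, which are held in myrosin idioblasts and guard cells and meet their substrate when tissue is damaged. ESM1 shifts the breakdown of glucosinolates away from nitriles and towards isothiocyanates.

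RNA was sequenced from whole seedlings in the Col-0 background that had germinated and grown in darkness for 14 days in sealed canister hardware. Flight seedlings grew aboard the International Space Station, and ground seedlings grew in a simulator of its environment at Kennedy Space Center with an offset of 2 days. All were fixed in RNAlater. The 5 genotypes were bzip28 (allele bzip28-2), bzip60 (bzip60-2), the double mutant bzip28bzip60 (bzip28-2 bzip60-1), the double mutant ire1aire1b (ire1a-4 ire1b-2) and wild type (WT), which gives 10 groups of genotype and condition with 4 libraries each. The mutated genes encode sensors and transcription factors of the unfolded protein response, the reaction of the endoplasmic reticulum to misfolded protein. Each library pooled the seedlings of a plate, each mutant is represented by a single combination of alleles, and all groups share darkness and a sucrose medium. There was 1 flight run and 1 ground run, so flight and run cannot be told apart. The p-values measure the spread between plates within a group, pooled over all 10 groups. The p-value of a difference within flight thus draws in part on the ground libraries. A further 4 labelled samples, used by the submitters for quality control only, were not analysed here.

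Values are FPKM, fragments per length of transcript and per size of library, and so can be compared between genes. A single locus of the ribosomal RNA repeat, AT2G01021, accounted for 2.97% to 47.2% of the summed FPKM of a flight library and 36.1% to 89.9% of that of a ground library. Every library was therefore rescaled by the median ratio over 14104 genes, and values below are rescaled FPKM unless the deposited scale is named. Differences are of log2(rescaled FPKM + 1), tested with limma over 19186 genes with a mean of at least 1 deposited FPKM, and a gene was called at a Benjamini-Hochberg adjusted p below 0.05. The median tested gene stood 0.10 higher in flight on the rescaled scale and 0.76 higher on the deposited scale, averaged over the 5 genotypes. The depth of the libraries is unknown, since the values showed no common step from which read numbers could be recovered. The targeted transcripts checked the labels. In flight, bZIP60 averaged 11.6 ± 1.57 in bzip60 libraries and 11.8 ± 1.39 in bzip28bzip60 libraries, against 27.4 ± 2.93 in WT libraries (SD, n = 4 each). IRE1A averaged 1.02 ± 0.0521 in ire1aire1b flight libraries and 27.1 ± 1.83 in WT flight libraries, and IRE1B averaged 3.97 ± 0.492 in ire1aire1b flight libraries and 7.03 ± 0.743 in WT flight libraries. bZIP28 averaged 3.87 ± 0.201 in bzip28bzip60 flight libraries, 85.4 ± 12.9 in the flight libraries labelled bzip28 and 17.1 ± 0.998 in WT flight libraries. The transcript thus goes against the label of the bzip28 single mutant, and every result on it concerns the libraries labelled bzip28.

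The promoters of CYP79F1, CYP79F2 and CYP83A1 are shown because these 3 core synthesis genes held the same MYB-type element and because CYP79F1 differed most between the mutants and WT in flight. Each window runs from 250 bases before to 50 bases after the annotated gene start, read 5′ to 3′ on the strand of the gene, from the RefSeq assembly TAIR10.1. Capitals mark ACGT, the core bound by bZIP factors, and ACCTACC, an AC element bound by MYB factors, searched on both strands (GGTAGGT on the other strand). CYP79F1 lies at chr1:5608432-5608731 on the + strand, CYP79F2 at chr1:5604794-5605093 on the + strand and CYP83A1 at chr4:7992380-7992679 on the - strand.
CYP79F1: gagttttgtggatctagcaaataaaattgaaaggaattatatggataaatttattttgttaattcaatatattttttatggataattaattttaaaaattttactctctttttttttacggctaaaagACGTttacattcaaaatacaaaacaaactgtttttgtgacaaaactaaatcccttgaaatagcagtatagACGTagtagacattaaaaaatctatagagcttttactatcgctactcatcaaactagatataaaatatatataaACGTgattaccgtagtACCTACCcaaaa
CYP79F2: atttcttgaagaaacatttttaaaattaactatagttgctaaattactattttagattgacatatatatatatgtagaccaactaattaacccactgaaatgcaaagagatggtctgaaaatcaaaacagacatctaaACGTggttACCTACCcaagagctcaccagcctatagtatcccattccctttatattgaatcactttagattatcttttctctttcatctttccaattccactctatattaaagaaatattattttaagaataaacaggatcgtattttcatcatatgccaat
CYP83A1: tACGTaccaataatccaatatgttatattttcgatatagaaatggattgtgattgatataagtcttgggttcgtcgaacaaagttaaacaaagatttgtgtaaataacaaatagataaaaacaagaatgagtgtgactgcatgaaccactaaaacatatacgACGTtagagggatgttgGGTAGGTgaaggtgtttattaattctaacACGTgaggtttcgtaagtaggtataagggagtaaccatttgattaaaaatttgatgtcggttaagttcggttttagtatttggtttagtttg
ACCTACC was present in these 3 of the 10 windows and in 1.38% of the 27443 promoters of the same length. The related letters ACCAAAC were present in ESM1 alone of the 10 and in 9.9% of all promoters, and ACCTAAC in none of the 10 and 2.88% of all. ACGT was present in 7 of the 10 windows, namely those of MYB28, BCAT4, CYP79F1, CYP79F2, CYP83A1, TGG1 and TGG2, and in 49.9% of all promoters. It occurred 3 times in the CYP79F1 window, 1 time in the CYP79F2 window and 3 times in the CYP83A1 window. The G-box CACGTG, which contains ACGT, was present in CYP83A1 alone of the 10 and in 7.68% of all. The endoplasmic reticulum stress element CCAATNNNNNNNNNNCACG, to which bZIP28 binds together with nuclear factor Y, was in none of the 10 windows and in 0.849% of all. These matches describe letters in a window and say nothing of what binds there.

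In the ground seedlings 9 of these 10 genes were close to silent. In the flight seedlings MYB29 stayed near 0, though listed above 0 in 13 of 20 libraries, and the other genes were present at higher levels. In 8 of the 10 genes all 20 flight libraries lay above all 20 ground libraries, the exceptions being MYB29 and TGG2. That separation was seen in 14.2% of the 19186 genes tested. For these 9 genes, all but TGG1, the mean over the ground libraries was below 1 FPKM. MYB29 failed the filter on low values, and 8 of the 9 genes that passed did so only through their flight libraries. Their difference in flight therefore had to be large. Neither their number nor any flight p-value given for them below is support for it. TGG1 alone also reached the filter level in its ground libraries.

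**Figure D1:**
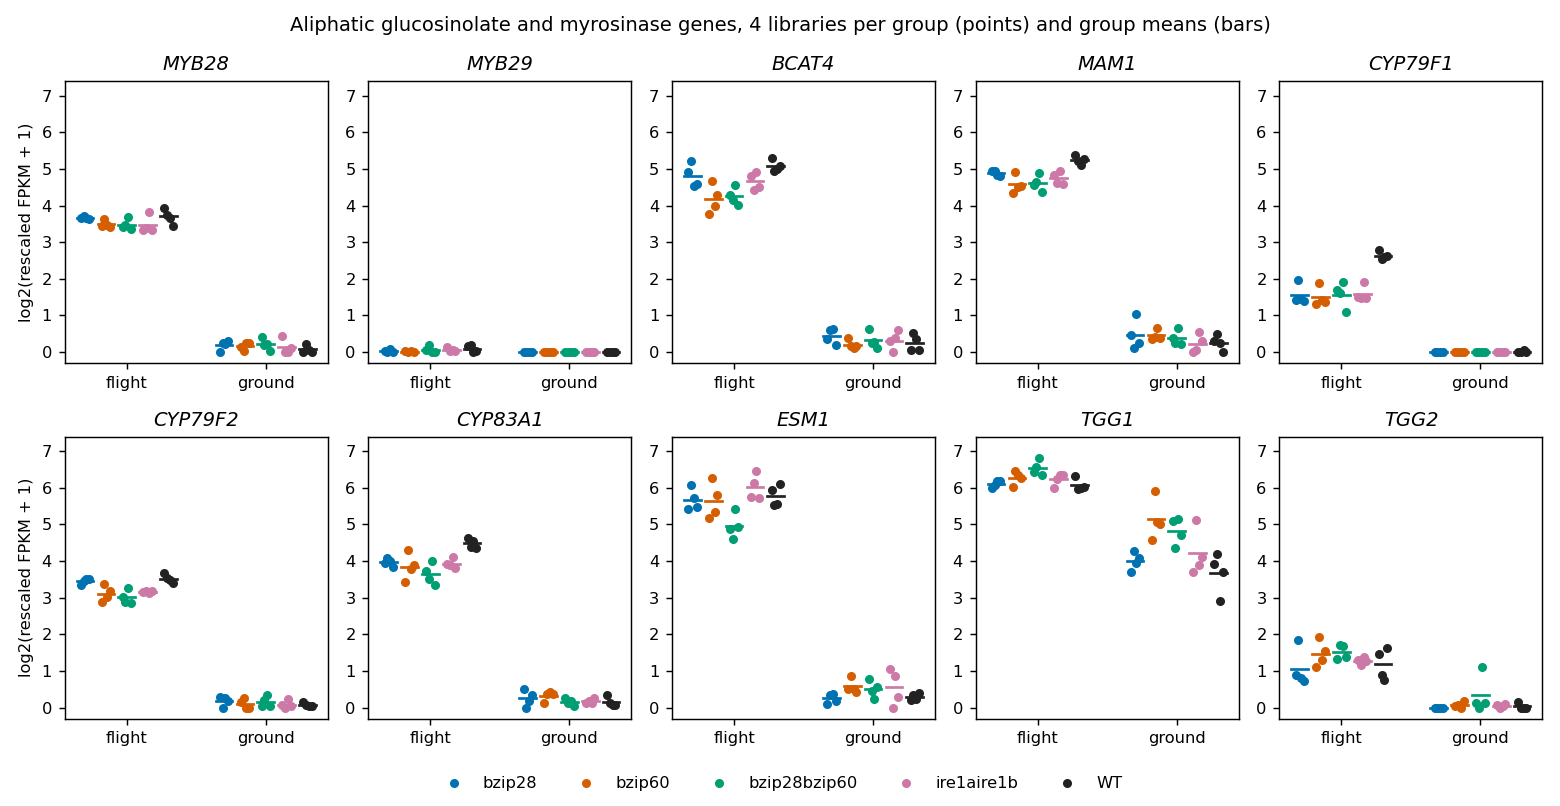
Rescaled FPKM of the 10 genes on a log2(value + 1) axis, with flight left of ground and each genotype in its own colour (points are libraries, 4 per group, and bars are group means). MYB28, BCAT4, MAM1, CYP79F1, CYP79F2, CYP83A1, ESM1 and TGG1 have every flight point above every ground point, TGG1 alone has ground levels well above 1, and MYB29 stays near 0.

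Of the regulators, MYB28 was the one detected at an appreciable level. In WT it had 14.4, 12.4, 11.6 and 9.97 FPKM in the 4 flight libraries, against 0, 0.172, 0.0392 and 0 in the 4 ground libraries. Over all genotypes the flight libraries ran from 9.10 through a median of 10.7 to 14.4, and the ground libraries from 0 through 0.119 to 0.353, with 5 of 20 listed at 0. No flight value came near a ground value. MYB28 rose in flight by 3.26 to 3.47 on the log2 scale in the 4 mutants and by 3.63 ± 0.115 (SE) in WT (adjusted p = 8.89e-23). MYB29, its close relative, was listed at 0 in all 20 ground libraries and in 7 of 20 flight libraries, with at most 0.137 FPKM in flight. MYB29 was not tested on the filtered table, and the third MYB gene of this clade, MYB76, was likewise below the filter, with at most 0.248 FPKM in flight and 0.0439 on the ground. The aliphatic pathway genes were thus high in flight libraries in which MYB28 was the only one of the 3 above 1 FPKM.

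Both chain-elongation genes rose. BCAT4 had 38.1, 29.7, 31 and 33.1 FPKM in the WT flight libraries, against 0.0439, 0.428, 0.280 and 0.0447 in the WT ground libraries. Its flight values over all genotypes ran from 12.5 through 22.8 to 38.1, and its ground values from 0 through 0.222 to 0.553. The lowest flight library, a bzip60 one, was still above every ground library. BCAT4 rose by 3.93 to 4.37 in the mutants and by 4.83 ± 0.171 in WT (adjusted p = 1.38e-21). MAM1, which catalyses the condensing step, had 41, 36.3, 33.8 and 37.3 FPKM in the WT flight libraries, against 0.223, 0.417, 0.181 and 0 in the WT ground libraries. It was the more abundant of the pair in flight, with 19.4 to 41 over the 20 flight libraries and 0 to 1.05 over the 20 ground libraries. MAM1 rose by 4.12 to 4.53 in the mutants and by 4.99 ± 0.153 in WT (adjusted p = 4.82e-23).

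The core synthesis genes were also high in flight, at different levels. CYP83A1 was the highest of the 3, with 23.8, 19.9, 22.3 and 19.7 FPKM in WT flight libraries and 0.266, 0.0955, 0.0503 and 0.0586 in WT ground libraries. It rose by 3.48 to 3.76 in the mutants and by 4.33 ± 0.133 in WT (adjusted p = 4.82e-23). CYP79F2 had 11.8, 10.6, 10.1 and 9.52 FPKM in WT flight libraries, against 0.109, 0.0450, 0.0245 and 0.0276 in WT ground libraries. It rose by 2.85 to 3.27 in the mutants and by 3.45 ± 0.103 in WT (adjusted p = 4.68e-23). CYP79F1, the neighbour of CYP79F2, was the lowest of the 3. It had 5.85, 4.84, 5.09 and 5.13 FPKM in WT flight libraries and was listed at 0 in 19 of the 20 ground libraries, the exception being 0.0321 FPKM in WT ground replicate 3. A gene listed at 0 in at least 15 of 20 ground libraries with a flight median above 1 FPKM was found in 0.271% of the tested genes. CYP79F1 chose the set, so its difference in flight, 1.49 to 1.60 in the mutants and 2.62 in WT, is a description. No fold is given, because the ground groups are at 0.

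CYP79F1 and CYP79F2 lie 1183 bases apart on chromosome 1, and their coding sequences are 90.7% identical with 100 bases as the longest identical run. Reads from such a run could have been assigned to either gene, so part of each level is uncertain. TGG1 and TGG2, 3674 bases apart on chromosome 5, are 79.2% identical with a longest run of 55 bases.

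The breakdown genes behaved differently from each other. ESM1 had the largest difference in flight of the 10 genes, and like CYP79F1 it chose the set. It had 60.5, 45.6, 46.1 and 67.8 FPKM in WT flight libraries, against 0.158, 0.263, 0.181 and 0.327 in WT ground libraries. By group mean in flight it stood at 30.8 ± 7.93 in bzip28bzip60, 50.9 ± 11.5 in bzip28, 51.4 ± 18.9 in bzip60, 65.3 ± 16.2 in ire1aire1b and 55 ± 11 in WT (SD, n = 4 each). Neighbours in the order of these 5 levels overlapped in their libraries, the lowest group included, whose libraries ran from 23.5 to 42.1. On the ground the group means ran from 0.198 to 0.531. The difference in flight was 4.45 in bzip28bzip60, 5.07 in bzip60, 5.42 in bzip28, 5.47 in ire1aire1b and 5.49 in WT.

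TGG1 was the gene of the set that was also present in ground seedlings. It had 79.5, 62.1, 63.3 and 64.2 FPKM in WT flight libraries, against 14.1, 17.2, 6.46 and 12.1 in WT ground libraries. Over all genotypes flight ran from 62.1 to 112 and ground from 6.46 to 59.6, so the highest ground library, bzip60 replicate 2, lay just under the lowest flight library. TGG1 rose by 1.13 in bzip60 (adjusted p = 0.000245), 1.72 in the double mutant bzip28bzip60, 2.03 in ire1aire1b, 2.11 in bzip28 and 2.41 ± 0.249 in WT (adjusted p = 4.46e-10). TGG2, the second shoot myrosinase, was far lower. It had 1.75, 0.851, 0.701 and 2.08 FPKM in WT flight libraries, against 0.11, 0, 0 and 0 in WT ground libraries. Within flight TGG2 averaged 1.78% to 2.35% of the TGG1 level of its own library in the 5 genotypes. TGG2 was listed at 0 in 10 of 20 ground libraries, and 1 bzip28bzip60 ground library at 1.14 FPKM lay among the flight values. It rose by 1.06 to 1.40 in the mutants and by 1.15 ± 0.213 in WT (adjusted p = 2.27e-05).

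Of the 7 genes with a flight test, all 35 tests over the 5 genotypes were calls for higher levels in flight and 0 for lower, also at an unadjusted p below 0.05, against a background of 34.1% higher and 23.6% lower over the same 5 comparisons. For the mean of the 5 genotypes it was 7 of 7, against 46.8% of all genes called higher, 33.3% called lower and, on the deposited scale, 84.6% called higher. On the deposited scale the same 35 calls stood against 70.5% of all genes. Since the rule used this contrast, nothing is read from these shares. The libraries were sequenced in 4 lanes, of which lane 1 held flight libraries only and lane 3 ground libraries only. Within lane 2 (4 flight and 6 ground libraries) and within lane 4 (5 and 5) all 7 genes were called higher in flight, with a background of 33.7% and 35%. The flight difference of MYB28 was 3.34 within lane 2 and 3.40 within lane 4, that of BCAT4 4.14 and 4.38, and that of TGG1 1.57 and 2.49. Genotypes were not balanced within a lane. In lane 2 only bzip60 was in both conditions, with bzip28 and ire1aire1b in flight only and WT and bzip28bzip60 on the ground only. In lane 4 bzip28bzip60 was in flight only. Flight differences within a lane, here and below, are thus partly mixed with genotype.

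Markers of tissues moved with flight as well. The summed level of 7 shoot markers ran from 404 to 754 FPKM in flight libraries and from 82.0 to 302 on the ground, without overlap. Of these markers 7 of 7 rose (46.8% of all genes tested were called higher and 33.3% lower), but LHCB1.2 passed the filter through its flight libraries. The epidermal gene PDF1 was 3.65 higher and the leaf polarity gene FIL 1.62 higher. The summed level of 8 root markers ran from 93.1 to 180 in flight libraries and from 56.9 to 117 on the ground, with medians of 128 and 73.7. Most of that sum was CASP1, which averaged 85.3 FPKM in flight libraries and 52.1 in ground libraries. Of the root markers 4 of 5 tested rose, a share set beside the same 46.8%. Of the 4, RHD2 passed the filter through its flight libraries, and CASP1, a gene of the root endodermis, was not called within lane 2 (0.44 higher, adjusted p = 0.12). The sum of 11 guard and myrosin cell markers ran from 35.3 to 54.2 in flight libraries and from 44.4 to 99.9 on the ground. Of these markers 3 of 9 tested rose and 5 fell, against 46.8% and 33.3% of all genes. On the deposited scale 4 were called higher and 1 lower, against 84.6% and 5.57%. The numbers of calls thus depend on the scaling, for all genes as for these markers. Among them KAT1, a guard cell potassium channel that passed the filter through its flight libraries, was 0.91 higher in flight and TMM, a receptor of the stomatal lineage, 1.89 lower. FAMA, the factor that sets up guard and myrosin cells, fell by 0.74, and on the rescaled scale only. The calls of the other 2 genes that rose did not hold in all lanes, GC1 having none with lane as a term (adjusted p = 0.0931), within lane 2 (adjusted p = 0.616) or within lane 4 (adjusted p = 0.0918) and MYB60 none within lane 2 (adjusted p = 0.909). The 7 seed markers summed to at most 0.661 FPKM in a flight library and 8.36 in a ground library, and none passed the filter. In whole seedlings a change in the number of cells of a type and a change in RNA per cell cannot be told apart, and the part of these markers in the results above was not tested.

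The other genes of the pathway were taken from lists compiled with earlier results of these data known, and the mean of the 5 genotypes is given for them beside the median over all 19186 genes, 0.10. Of all these genes 46.8% were called higher and 33.3% lower, and on the deposited scale 84.6% higher and 5.57% lower. All 7 other chain-elongation genes were called higher in flight (7 of 7 tested, median 3.25), but MAM3, BAT5, IPMI_SSU2, IPMI_SSU3 and IPMDH1 averaged below 1 deposited FPKM on the ground and passed the filter through their flight libraries, so this count and median are no support for a rise of the list. The other 2 were well expressed on the ground. BCAT3, a branched-chain aminotransferase gene, had 30.1 ± 2.38 FPKM in flight libraries and 18.5 ± 1.96 in ground libraries, and IPMI_LSU1, the large subunit of the isomerase, had 95.1 ± 7.17 in flight libraries and 73.9 ± 4.39 in ground libraries. The largest were MAM3, which makes the longest chains, at 34.4 ± 7.19 FPKM in flight libraries and 0.671 ± 0.329 in ground libraries (SD, n = 20 each), 4.40 higher, and the isopropylmalate dehydrogenase gene IPMDH1, 4.38 higher. IPMI_SSU3, a small subunit of the isomerase of the cycle, was 3.66 higher. All 7 tested core synthesis genes rose too (median 1.05), GSTU20 being the one that passed the filter through its flight libraries. GSTU20, a glutathione transferase of the pathway, had 30.2 ± 6.91 FPKM in flight libraries and 0.269 ± 0.197 in ground libraries and was 4.60 higher. The glucosyltransferase gene UGT74C1 was 1.94 higher and the sulfotransferase gene SOT18 1.08 higher. UGT74B1, SUR1 and GGP1, which also serve the indole branch, were 0.79, 0.52 and 0.33 higher, and with 22.1, 22.7 and 64.4 FPKM on average in ground libraries they were far from silent there.

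Of the genes that modify the side chain, 3 of 6 tested were called higher and 3 lower, near the shares over all genes (46.8% and 33.3%). FMOGS-OX3 and FMOGS-OX1, which oxidise the sulfur of the side chain, were 1.37 and 1.3 higher, and AOP1 0.81 higher, a call that was absent within lane 2 (adjusted p = 0.0687). FMOGS-OX4 was 1.52 lower, with 3.29 ± 0.789 FPKM in flight libraries and 11.6 ± 3.96 in ground libraries, and GSL-OH, which hydroxylates the side chain, was 1.51 lower, with 57.1 ± 7.27 in flight libraries and 166 ± 30.9 in ground libraries. FMOGS-OX1 and FMOGS-OX3 passed the filter through their flight libraries, and on the deposited scale 4 genes were called higher and 2 lower, FMOGS-OX5 having turned to higher. AOP2 was at or below 0.511 FPKM in every flight library and listed at 0 in all 20 ground libraries. Of the other regulators, IQD1 rose by 0.67 and SDI2, a repressor of synthesis under sulfur deficiency, by 0.45 (absent within lane 4, adjusted p = 0.0583). MYC2, MYC3 and MYC4, the partners of the MYB factors, were 0.75, 0.79 and 0.24 lower on the rescaled scale, while on the deposited scale MYC2 and MYC3 were not called and MYC4 was higher.

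**Figure D2:**
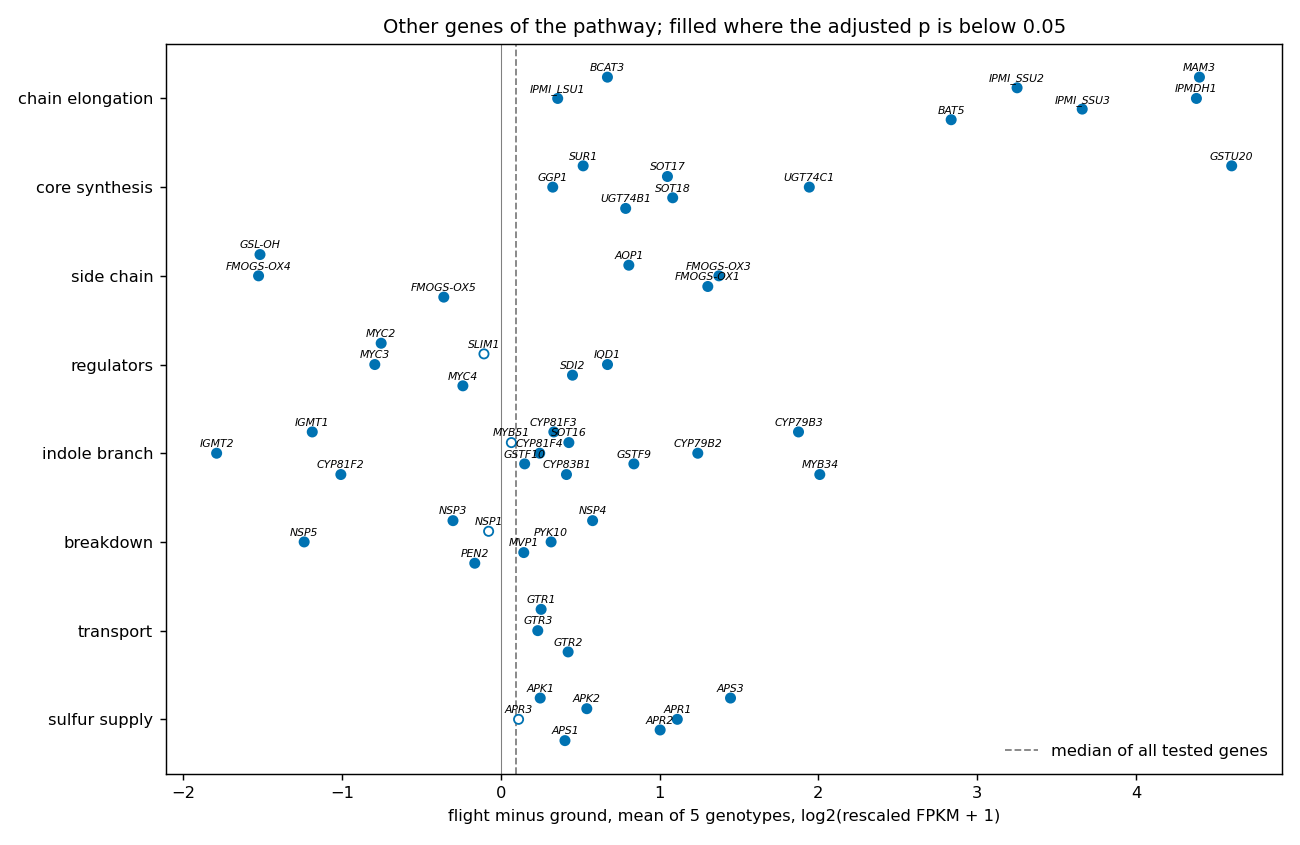
Flight minus ground for the other genes of the pathway, averaged over the 5 genotypes, on the scale of log2(rescaled FPKM + 1). Each point is a gene, filled where it was called, and the dashed line is the median of all tested genes (0.10). Chain elongation and core synthesis lie right of the line, with MAM3, IPMDH1 and GSTU20 above 4, while the side chain, indole and breakdown genes lie on both sides.

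In the indole branch, which starts from tryptophan, 9 of 13 tested genes rose and 3 fell (median 0.33), against 46.8% and 33.3% of all genes. On the deposited scale 10 were called higher and 3 lower, against 84.6% and 5.57%. Of the 9, CYP81F3 passed the filter through its flight libraries. The regulator MYB34 was 2.01 higher, with 17.2 ± 1.72 FPKM in flight libraries and 3.64 ± 1.19 in ground libraries, and the entry enzymes CYP79B3 and CYP79B2 were 1.87 and 1.24 higher. IGMT2, IGMT1 and CYP81F2, which decorate the indole ring, were 1.79, 1.19 and 1.01 lower. Unlike the aliphatic entry genes, none of CYP79B2, CYP79B3 and MYB34 was close to 0 on the ground. Of the other breakdown genes 3 of 7 tested rose and 3 fell, near the shares over all genes, and on the deposited scale 5 were called higher and 1 lower. NSP4 was 0.58 higher (no call within lane 4, adjusted p = 0.244) and NSP5 1.24 lower, both nitrile-specifier genes. PYK10, the abundant beta-glucosidase of roots, was 0.32 higher and MVP1 0.15 higher, but within lane 2 PYK10 was 0.07 lower and MVP1 0.09 lower, and MVP1 was not called within lane 4 (adjusted p = 0.0928). The root myrosinase genes TGG4 and TGG5 and the epithiospecifier gene ESP did not pass the filter. All 3 transporter genes rose, against 46.8% of all genes, and all 3 were called higher on the deposited scale, against 84.6%. GTR2 was 0.42 higher, GTR1 0.25 and GTR3 0.23. The call of GTR1 was absent within lane 4 (adjusted p = 0.462) and that of GTR3 within lane 2 (adjusted p = 0.404) and lane 4 (adjusted p = 0.4). Of the sulfur supply genes 6 of 7 rose (46.8% of all genes), and on the deposited scale 7 of 7 were called higher (84.6% of all genes). The ATP sulfurylase gene APS3 was 1.45 higher and the adenylylsulfate reductase genes APR1 and APR2 were 1.11 and 1.00 higher.

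On the ground 8 of the 9 tested genes averaged below 1 deposited FPKM, so a difference between genotypes could hardly be called there. The numbers of calls in flight and on the ground are therefore not compared. The largest differences between the mutants and WT in flight were those of CYP79F1. In flight it had 1.83, 1.8, 2.79 and 1.78 FPKM in ire1aire1b, 1.69, 2.91, 1.75 and 1.65 in the libraries labelled bzip28, 1.46, 2.68, 1.69 and 1.58 in bzip60 and 2.21, 2.04, 2.76 and 1.13 in bzip28bzip60, against 5.85, 4.84, 5.09 and 5.13 in WT. All 16 mutant libraries lay below all 4 WT libraries, while the 4 mutants overlapped with each other. CYP79F1 was lower than WT by 1.14 ± 0.138 in bzip60 (log2, SE, adjusted p = 1.88e-06), 1.07 in bzip28 (adjusted p = 6.79e-06), 1.06 in the double mutant bzip28bzip60 (adjusted p = 8.54e-06) and 1.04 in ire1aire1b (adjusted p = 1.55e-05). The 4 comparisons share the WT libraries and are not independent. Because CYP79F1 was listed at 0 in 19 of 20 ground libraries, they nearly repeat a comparison of its flight response between genotypes. That response in bzip60 minus that in WT was -1.13. The rule used the flight response of CYP79F1, so these p-values and any count of calls that includes CYP79F1 are a description. CYP79F1 was 1 of 19 genes, 0.099% of those tested, called lower than WT in flight in all 4 mutants. All 16 mutant libraries below the 4 WT libraries were seen in 0.297% of the genes tested, and among the 10 described here also in MAM1 and CYP83A1. Within lane 1 CYP79F1 ran from 1.13 to 2.91 FPKM in 8 mutant libraries and from 4.84 to 5.85 in 3 WT libraries, and within lane 4 from 1.69 to 2.79 in 4 mutant libraries against 5.13 in 1 WT library. In 49 fits per mutant, the one given included, the difference stayed between -0.90 and -1.48. These fits reuse the same libraries and are a description as well.

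The neighbour CYP79F2 was called lower than WT in flight in 1 of the 4 mutants. In flight it had 7.97, 8.17, 7.81 and 8.03 FPKM in ire1aire1b, 9.16, 9.90, 10.4 and 10.5 in the libraries labelled bzip28, 6.43, 9.34, 7.06 and 8.10 in bzip60 and 7.09, 6.33, 8.68 and 6.28 in bzip28bzip60, against 11.8, 10.6, 10.1 and 9.52 in WT. The libraries labelled bzip28 and those of WT overlapped. The ratio of CYP79F1 to CYP79F2 within a library, which no rescaling can change, averaged 0.257 ± 0.0671 in ire1aire1b, 0.283 ± 0.0690 in bzip28bzip60, 0.237 ± 0.0382 in bzip60, 0.201 ± 0.0629 in bzip28 and 0.499 ± 0.0334 in WT (SD, n = 4 each). The highest mutant ratio was 0.358 and the lowest WT ratio 0.457. The ratio of CYP79F1 to CYP83A1 likewise reached at most 0.196 in a mutant library and was at least 0.229 in a WT library.

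**Figure D3:**
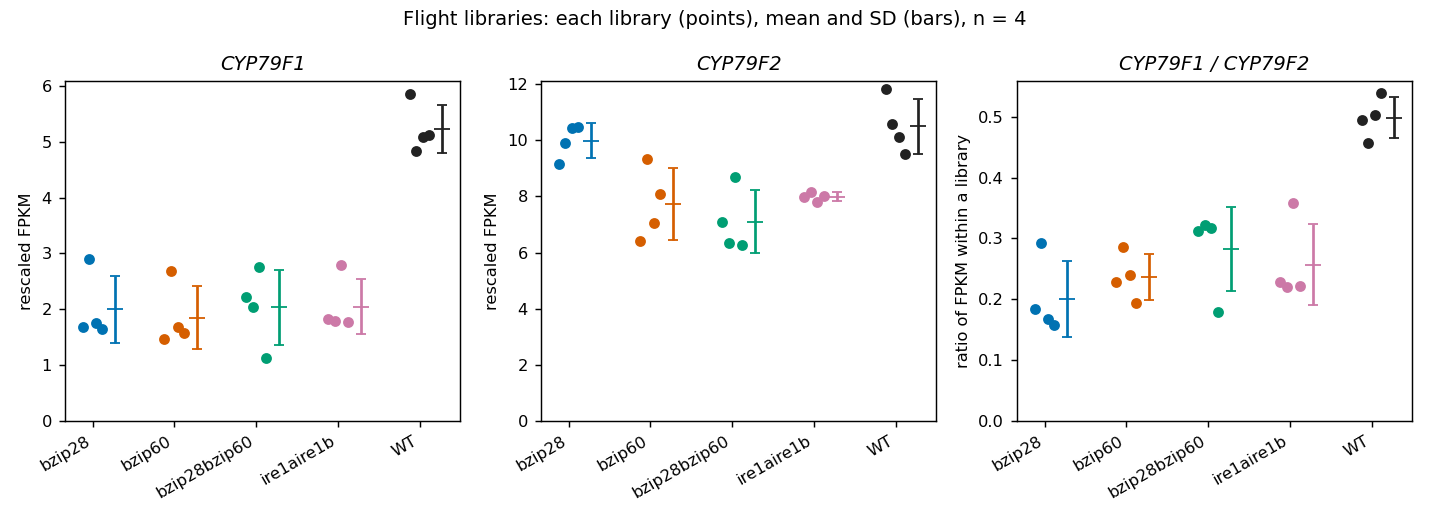
CYP79F1 and CYP79F2 in flight (rescaled FPKM, axes from 0) and their ratio within each library, with the mutants left of WT (points are libraries, bars are mean and SD, n = 4). The 16 mutant points of CYP79F1 lie between 1.13 and 2.91 and the 4 WT points between 4.84 and 5.85, whereas the CYP79F2 points of bzip28 and WT overlap.

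Some of the other pathway genes were called lower in part of the mutants. Of 36 tests in flight (9 genes, 4 mutants) 10 were calls lower than WT, against 0.207% of tests over all genes, and 0 were calls higher by limma, none also at an unadjusted p below 0.05, against 0.0391%. The 10 include CYP79F1 in all 4 mutants, so this count is a description and nothing is read from its share. The 6 calls besides CYP79F1 were in bzip60 (background 0.214% lower) and bzip28bzip60 (background 0.292% lower). BCAT4 had 12.5, 24.4, 14.9 and 18.5 FPKM in bzip60 and 18.6, 16.9, 22.8 and 15.1 in bzip28bzip60, against 38.1, 29.7, 31 and 33.1 in WT, with no overlap. It was 0.91 ± 0.171 lower in bzip60 (adjusted p = 0.00571) and 0.82 lower in bzip28bzip60 (adjusted p = 0.0139). CYP83A1 had 9.72, 18.6, 12.8 and 14.0 FPKM in bzip60 and 12.2, 10.4, 14.9 and 9.18 in bzip28bzip60, against 23.8, 19.9, 22.3 and 19.7 in WT. It was 0.63 ± 0.133 lower in bzip60 (adjusted p = 0.0207) and 0.84 lower in bzip28bzip60 (adjusted p = 0.000352). MAM1 was 0.67 ± 0.153 lower in bzip60 (adjusted p = 0.0428), with 19.4, 29, 21.8 and 22.1 FPKM. CYP79F2 was 0.51 ± 0.103 lower in bzip28bzip60 (adjusted p = 0.00938). These genes did not pass the test in ire1aire1b or in bzip28-labelled libraries, with CYP83A1 at -0.55 (95% interval -0.82 to -0.27) and -0.51 (-0.79 to -0.24), MAM1 at -0.50 and -0.37, and BCAT4 at -0.42 and -0.27. Whether a gene differed between the mutants themselves was not tested.

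Of these 6 calls only that of CYP83A1 in bzip28bzip60 held without any 1 library. All 6 were absent with a pseudocount of 0.1, and all but that of BCAT4 in bzip28bzip60 with only the compared groups in the fit. The fit given took part of its spread from the ground groups, where these genes lay near 0. On the deposited scale those of CYP79F2 (adjusted p = 0.0854), MAM1 (adjusted p = 0.0768) and CYP83A1 in bzip60 (adjusted p = 0.0503) were absent. That of MAM1 was also absent with the sequencing lane as a term (adjusted p = 0.11) and with no filter on low values (adjusted p = 0.0586). Without WT flight replicate 1 the number of calls lower than WT was 6, CYP79F1 included. The BCAT4 call in bzip60 was lost without bzip60 flight replicate 1 (adjusted p = 0.0705), and that in bzip28bzip60 without bzip28bzip60 flight replicate 2 or 4 or WT flight replicate 1 or 4 (adjusted p = 0.0513 to 0.112). The CYP83A1 call in bzip60 was lost without bzip60 flight replicate 1, 3 or 4 or WT flight replicate 1 or 3 (adjusted p = 0.0581 to 0.257), and the CYP79F2 call without bzip28bzip60 flight replicate 2 or 4 or WT flight replicate 1 (adjusted p = 0.0631 to 0.0764). The MAM1 call was lost without any 1 of 20 libraries (adjusted p = 0.0505 to 0.273). These were WT flight 1, 2, 3 and 4, bzip60 flight 1, 3 and 4, bzip28 flight 1, 2 and 4, bzip28bzip60 flight 1 and 2, ire1aire1b flight 1, WT ground 1 and 3, bzip28 ground 1, bzip60 ground 1 and 4, and bzip28bzip60 ground 1 and 2.

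MYB28, which switches these genes on, was not called in any mutant in flight. It averaged 10.2 ± 1.95 FPKM in ire1aire1b, 11.7 ± 0.310 in the libraries labelled bzip28, 10.2 ± 0.795 in bzip60 and 10.2 ± 1.2 in bzip28bzip60, against 12.1 ± 1.85 in WT (SD, n = 4 each). The differences from WT were, in the same order, -0.23 (95% interval -0.47 to 0.00327), -0.04 (-0.27 to 0.20), -0.21 (-0.45 to 0.02) and -0.22 (-0.46 to 0.01). ESM1, TGG1 and TGG2 were not called in any mutant in flight either. ESM1 in bzip28bzip60 stood at -0.83 with a 95% interval of -1.27 to -0.38 (adjusted p = 0.125), and its libraries did not overlap those of WT.

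**Figure D4:**
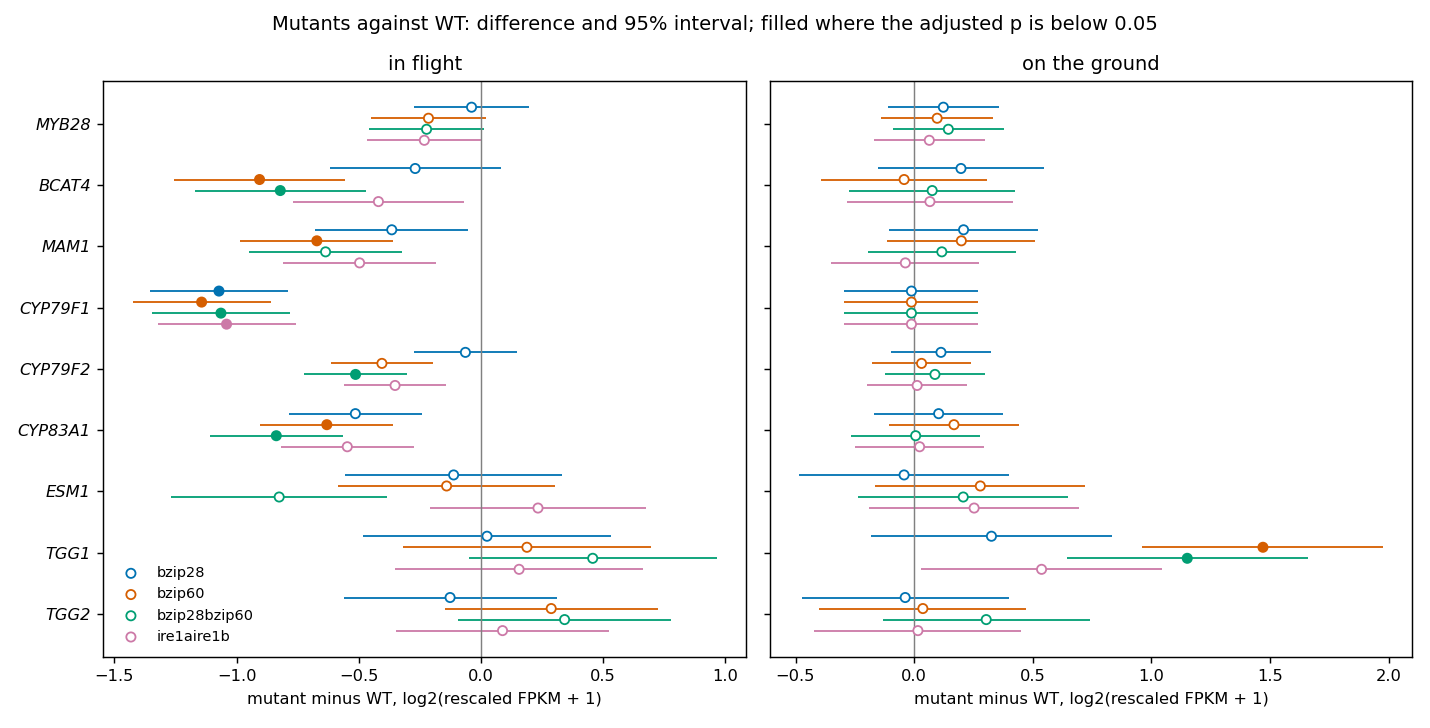
Difference of each mutant from WT in flight (left) and on the ground (right) for the 9 tested genes, on the scale of log2(rescaled FPKM + 1), with 95% intervals and filled points where the adjusted p was below 0.05. In flight CYP79F1 is called lower in all 4 mutants and 6 further calls lie in bzip60 and bzip28bzip60, and on the ground only TGG1 is called, higher in bzip60 and bzip28bzip60.

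On the ground the synthesis genes were too low for a difference between genotypes to be read. The exception was TGG1, with 23, 59.6, 32.5 and 31.3 FPKM in bzip60 and 33.4, 19.3, 34.3 and 25.3 in bzip28bzip60, against 14.1, 17.2, 6.46 and 12.1 in WT. No library of these 2 mutants overlapped with WT. TGG1 was 1.47 ± 0.249 higher in bzip60 (adjusted p = 0.000476) and 1.15 higher in bzip28bzip60 (adjusted p = 0.0079). These were the 2 calls higher among 36 tests on the ground, against 1.21% of tests over all genes (2.26% in bzip60 and 1.24% in bzip28bzip60, and 17.7% over all on the deposited scale, where TGG1 was also called). By limma 0 calls were lower, none also at an unadjusted p below 0.05, against 1.49%. All tested genes but TGG1 averaged below 1 FPKM on the ground and had little room to be called lower. Nothing is therefore read from the counts over 36 tests. In ire1aire1b TGG1 had 12, 34, 14.0 and 16.4 FPKM and was 0.54 higher, which did not pass the test (adjusted p = 0.423), and in the libraries labelled bzip28 it had 12, 18.4, 14.3 and 16.1. The call in bzip28bzip60 was lost without WT ground replicate 3 (0.89 higher, adjusted p = 0.0685). Both calls were lost when only the libraries of the compared groups entered the fit (adjusted p = 0.145 and 0.206). TGG1 in flight did not differ by test between these mutants and WT, with 0.19 in bzip60 (95% interval -0.32 to 0.70) and 0.46 in bzip28bzip60 (-0.05 to 0.96).

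The flight response was also compared between mutants and WT directly, for 7 genes and 4 mutants. Of the 28 tests, limma called 0 as a larger response in the mutant (background 0.0222%) and 0 as a smaller one (background 0.0235%), with 0 and 15 at an unadjusted p below 0.05. The share of all genes at that unadjusted p was not taken, so nothing is read from the 15. For all of these genes but TGG1, near 0 on the ground, this nearly repeats the comparison in flight with a larger SE. BCAT4 in bzip60 stood at -0.86 ± 0.242 here and at -0.91 ± 0.171 in flight. The absence of calls is thus not a separate result. The lowest adjusted p was that of CYP83A1 in bzip28bzip60, whose response was 0.84 smaller than in WT (adjusted p = 0.0738). That of TGG1 in bzip60 was 1.28 smaller (adjusted p = 0.181). On the deposited scale 5 responses were called smaller, all in bzip60, where 22.2% of all genes were called so, and they were those of BCAT4, MAM1, CYP79F2, CYP83A1 and TGG1.

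Across the 20 flight libraries the deviations of MYB28 and CYP79F1 from their group means went together on the scale of log2(rescaled FPKM + 1). Pearson's r was 0.687 (permutation p = 0.00025, adjusted over 2 relations p = 0.0005) and Spearman's rho 0.597 (permutation p = 0.00046). Without the 2 libraries farthest from the median of MYB28 r was 0.65, and within lane 1 it was 0.8 over 11 libraries, while lanes 2 and 4 held 4 and 5 flight libraries, too few for a value. All deviations in a library share its scale and its RNA. For MYB29, near 0 in every flight library, r was -0.0223 (permutation p = 0.938, adjusted p = 0.938) and rho 0.0391 (permutation p = 0.865), and r was -0.00508 without the 2 farthest libraries. No correlation could be taken on the ground, since CYP79F1 was listed at 0 in 19 of 20 libraries and MYB29 in all 20.

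The genes whose 10 group means were most like those of ESM1 on the same scale, among 13826 genes with a mean of at least 5 FPKM, were TBL37 (Pearson r = 0.998), MLP423, TRX3, MES3 and PMM. MLP423 averaged 17.6 FPKM in flight libraries and 0.464 in ground libraries, the one of the 5 that was also below 1 on the ground, while TRX3, a cytosolic thioredoxin gene, had 793 and 252. The genes most like CYP79F1 were AT1G43910 (r = 0.988), EDS16, FRO1, XTH28 and GAPC2. EDS16, the isochorismate synthase gene of salicylate formation, had a mean of 10.6 FPKM over the mutant flight libraries, against 26 in WT flight libraries, and AT1G43910 had 8.38 against 19.2. These likenesses rest on 10 points that share the split of flight and ground, and no test was made.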

How the data were processed

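RNA-seq libraries of whole seedlings were made with a stranded mRNA kit per the labels' protocols. The deposited FPKM per locus were made by the authors with cutadapt 1.8.1, Bowtie2 2.2.4, TopHat2 2.0.14 and Cufflinks 1.3.0 on TAIR10, per the submitters' processing notes, with FastQC 0.11.5 as a check. Strand-aware counting, multi-mapping settings and read numbers are not given in the sources used here, so depth is unknown and FPKM were not tested as counts. Here 40 libraries were rescaled by the median ratio over 14104 genes above 1 FPKM in all, and log2(FPKM + 1) was fitted with limma 3.58.1 (R 4.3.3) as 10 group means with a trended prior, over 19186 genes with a mean of at least 1 FPKM, and adjusted by Benjamini-Hochberg. In data simulated for flight in WT over 19186 genes, 91 of 100 genes changed by 1 and 100 of 100 changed by 2 on the log2 scale were recovered, with 13 false calls. The changed genes were drawn from those with a mean log2 value above 2, and the spread was shuffled over all groups. MYB28, CYP79F1, CYP79F2 and TGG2 lie below that mean, so this recovery does not cover them. Correlations used 1e+05 permutations within groups. Promoters, positions and identities came from the RefSeq annotation TAIR10.1, matched by locus for 10 of 10 genes. The members, pathway lists and cell type markers were chosen with earlier results of these data known. Of each list the text names up to 3 genes with the largest difference called in 1 direction on both scales, up to 3 opposing ones, and others where a count or a shared role turns on them, chosen after their values were seen. Alternatives were the deposited scale, total rescaling, a pseudocount of 0.1, no filter, only the compared groups, lane, replicate and letter terms, within-lane fits and leaving out each library. Replicates within groups correlated at r = 0.944 to 0.98, and no 2 columns held the same values.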

Additional observations from a re-analysis of the deposited data

Results flagged for a closer look

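In 9 of the 90 sets of 4 libraries examined (9 genes in 10 groups) the highest or lowest library stood apart from the other 3, and chance gives about 5% of sets. That share does not hold for values listed at 0. A set with all 4 libraries at 0 could not stand out, and with 3 at 0 the remaining library did so by construction. The 9 sets are thus a description. In flight, MYB28 was at 13.1 FPKM in ire1aire1b replicate 3, against 9.10 to 9.43 in the other 3. In that same library CYP79F1 was at 2.79, against 1.78 to 1.83. CYP79F1 and TGG2 were both highest in replicate 2 of the flight libraries labelled bzip28, at 2.91 (others 1.65 to 1.75) and 2.57 (others 0.642 to 0.845). TGG1 was at 79.5 in WT flight replicate 1, against 62.1 to 64.2. On the ground MAM1 was at 0.585 in bzip60 replicate 3, against 0.291 to 0.330, and TGG2 at 1.14 in bzip28bzip60 replicate 3, against 0 to 0.0977. CYP79F1 at 0.0321 in WT replicate 3 and TGG2 at 0.11 in WT replicate 1 stood out from 3 ground libraries listed at 0.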

How the results depend on the processing

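Over all alternatives the tested genes stayed higher in flight, with 30 to 35 calls when each library was left out (30 without bzip60 flight replicate 2, which put TGG2 under the filter) and 6 to 7 for the mean of the genotypes. With no filter, where MYB29 was tested too, there were 36 calls, and 8 for the mean of the genotypes. Calls lower than WT in flight, 10 as given, were 4 with a pseudocount of 0.1, those of CYP79F1, 5 with only the compared groups and 6 to 13 with 1 library left out. Calls higher than WT on the ground, 2 as given, were 0 with only the compared groups and 1 to 2 with 1 library left out (1 without WT ground replicate 3). Calls of a smaller flight response, 0 as given, were 5 on the deposited scale and 0 to 2 with 1 library left out (2 without bzip28bzip60 flight replicate 3 or bzip60 flight replicate 2, 1 without bzip60 flight replicate 1 or bzip28 ground replicate 3). The r of MYB28 and CYP79F1 ran from 0.62 to 0.76 and that of MYB29 and CYP79F1 from -0.23 to 0.101 with 1 library left out, the second being 0.156 on the deposited scale and turning in sign without each of 6 of the 20 libraries. The flight difference of PYK10 was -0.0659 and that of MVP1 -0.08753 within lane 2. Where a call was lost the cause was not tested. Fits on fewer libraries or genes test less, and a fit on only the compared groups takes the spread from those groups alone. Replicate numbers did not pair flight and ground libraries: 20 correlations of deviations ran from -0.11 to 0.173 with a median of 0.0109, and 6 of 20 were best with their own number. With the replicate block 11 calls lower than WT in flight were made, and no other call count changed by over 1.5 times. Apart from the correlations and the numbers of calls, the log2 changes of the named genes gave 93 results and 3697 values with 1 library left out, of which 3663 kept direction and call, 34 lost the call and 0 turned. The unknown depth limits what can be said of levels near 0.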
